A study of Mus musculus with 20 samples.

Results

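Respiratory complex I was examined through the 46 genes whose platform symbol starts with Nduf, among 22206 probe sets and 19505 named genes on the array. They comprise 38 genes named for subunits (Ndufa, Ndufb, Ndufc, Ndufs and Ndufv) and 8 genes named for assembly factors (Ndufaf). Each of the 46 symbols had a single probe set, all 46 were tested, and no filter on low signals was applied. The study hybridised RNA from 20 mouse livers to Affymetrix arrays, 1 array a liver, and each of its 4 groups held 5 livers from separate animals according to the labels. The groups were fasted Mcl1(L-/-), fed Mcl1(L-/-), fasted WT and fed WT. Fasted mice spent 48 h singly in wire-bottom cages with water and no food, while fed mice always had food. In Mcl1(L-/-) mice the floxed Mcl1 gene was deleted with an adeno-associated virus, AAV-LP1-Cre, that expresses Cre recombinase from the liver-directed LP1 promoter. The labels carry the same sentence on Mcl1(F/F) mice and AAV-LP1-Cre for all samples, and do not say whether WT mice were floxed or received a virus, so the effects of Mcl1 loss, Cre and the vector cannot be told apart. The labels are silent on age, sex and strain.

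Complex I, or NADH:ubiquinone oxidoreductase, is the entry point of the mitochondrial respiratory chain for electrons carried by NADH. Its matrix arm holds the N module, which oxidises NADH, and the Q module, which hands the electrons to ubiquinone through a row of iron-sulphur clusters. Its membrane arm, with a proximal and a distal part, pumps protons. Assembly factors help to build the enzyme and are absent from the finished complex. In the fasting liver, oxidation of fatty acids delivers much of the NADH that complex I uses. The mitochondrially encoded subunits were not analysed here.

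All values are log2 signals on the authors' normalised scale, which is comparable between livers for a given gene and not between genes. A gene is said to rise, fall or change where limma's adjusted p, computed over all 22206 probe sets, was under 0.05. The median signal of an array lay between 3.35 and 3.47, and within groups the arrays' correlations over all probe sets were 0.979 to 0.990. On the first principal component of all probe sets (34.2% of the variance), fasted Mcl1(L-/-) replicates 3 and 4 lay at 18.3 and 27, nearer to the fasted WT livers (6.61 to 18.4) than replicates 1, 2 and 5 did (42.1 to 46.8). Mcl1, the targeted gene, averaged 6.14 ± 0.25 in fasted Mcl1(L-/-) and 7.28 ± 0.09 in fasted WT livers, and 6.09 ± 0.16 in fed Mcl1(L-/-) and 7.43 ± 0.15 in fed WT livers (SD, n = 5). Whether its probes lie in the deleted exons is not known here, so this checks the labels only in part.

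Fasting raised many subunit genes in Mcl1(L-/-) livers and few in WT livers. Of the 38 subunit genes, 17 rose and 0 fell with fasting in Mcl1(L-/-) livers, which is 44.7% of them, where 14.4% of all probe sets changed, 8.20% upward and 6.25% downward. In WT livers 3 rose and 0 fell, which is 7.89%, where 6.79% of all probe sets changed, 3.10% upward and 3.68% downward. Limma called a difference between the genotypes' responses for 0 of the 38 (7 at an unadjusted p under 0.05). The median log2 difference of the subunits between fasted and fed livers was 0.26 in Mcl1(L-/-), with 36 of 38 above 0, and 0.05 in WT, with 27 of 38 above 0. The medians over all probe sets were -0.002 and 0.015. The changes were small, since the largest subunit difference, that of Ndufs7, was 1.56-fold. Livers did not overlap between the fasted and fed groups for 13 subunits in Mcl1(L-/-), all higher in the fast, where 5.88% of all probe sets were higher and 4.37% lower without overlap. In WT livers Ndufv1 was higher and Ndufs8 lower without overlap, where the shares over all probe sets were 3.54% and 3.81%. The count of 17 was 10 without fed Mcl1(L-/-) replicate 1 or 5, 11 without fed Mcl1(L-/-) replicate 3 and 10 (9 higher and 1, Ndufs8, lower) without fasted Mcl1(L-/-) replicate 4. It was 12 (11 higher, and Ndufs8 lower) without both fasted Mcl1(L-/-) replicates 3 and 4, an alternative chosen after seeing the data, and 11 when only fed and fasted Mcl1(L-/-) arrays entered the fit. In WT, the count of 3 was 1 when any of fed replicates 3, 4 and 5 or fasted replicates 2 and 3 was left out.

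**Figure D1:**
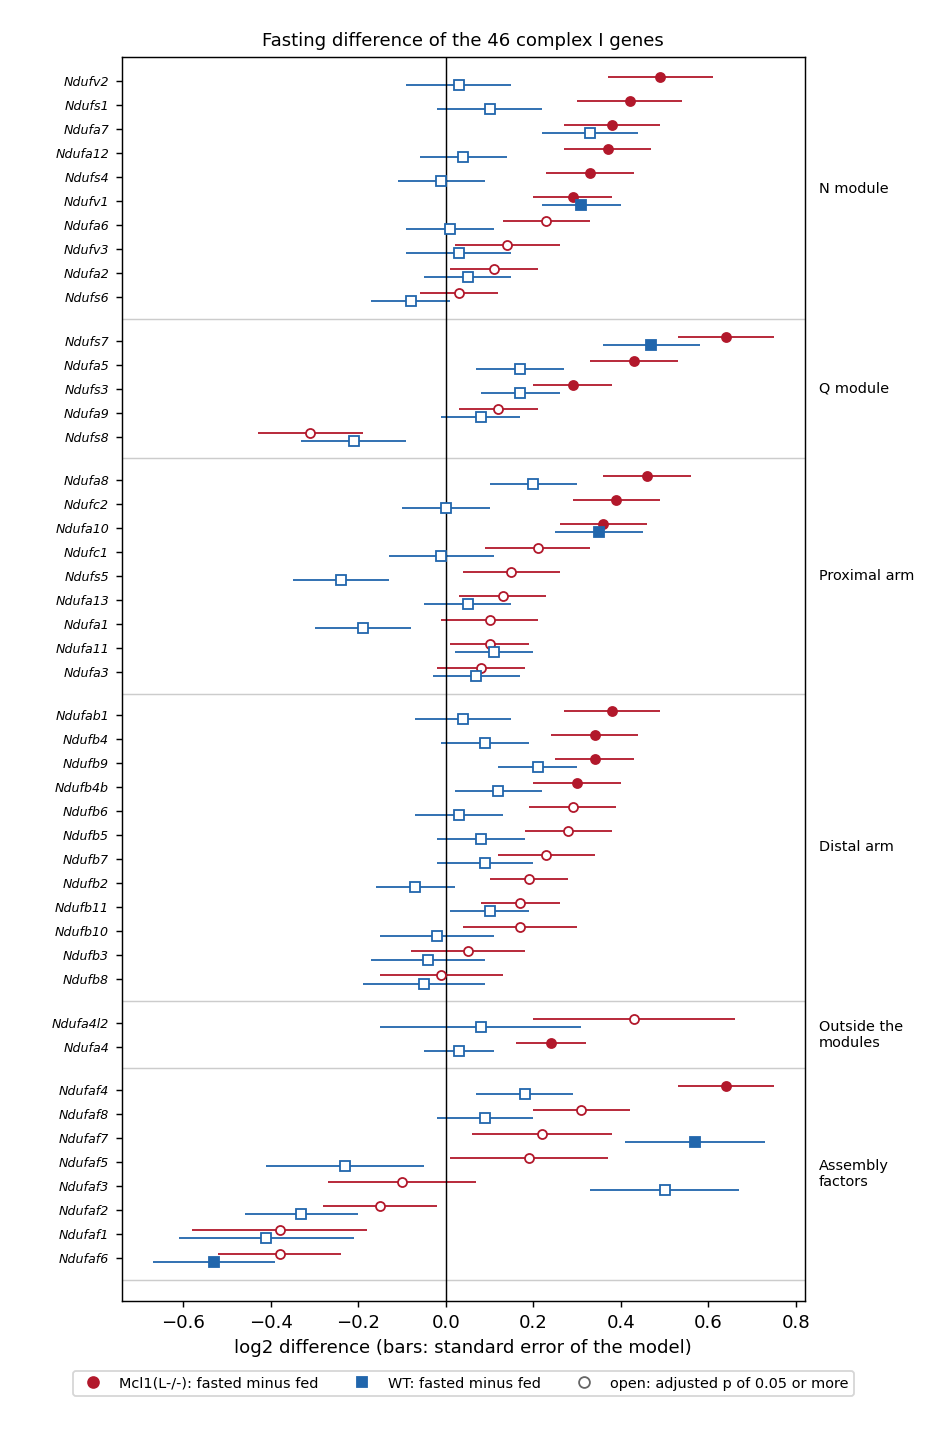
Difference between fasted and fed livers in log2 signal (x axis) for each of the 46 genes (rows, grouped by module), with circles for Mcl1(L-/-) and squares for WT; bars are the standard error of the model and filled symbols have an adjusted p under 0.05. Filled circles mark 17 subunits and 1 assembly factor in Mcl1(L-/-), all to the right of 0, and filled squares mark 3 subunits and 2 assembly factors in WT.

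The core subunits of the matrix arm, which hold among them the flavin, the iron-sulphur clusters and the ubiquinone site, are the catalytic part of the enzyme. Of the 6 measured core genes 5 rose in fasted Mcl1(L-/-) livers, where 8.20% of all probe sets rose. In fasted WT livers 2 of the 6 rose, where 3.10% of all probe sets did, and limma called the interaction for 0 of the 6. Ndufs7 encodes the Q module subunit that holds the last iron-sulphur cluster before ubiquinone. Its log2 signals were 7.87, 7.92, 7.78, 8.01 and 8.05 in fasted and 7.24, 7.21, 7.33, 7.47 and 7.18 in fed Mcl1(L-/-) livers. All fasted livers of that genotype lay above all fed livers, and the difference was 0.64 (SE 0.11, limma adjusted p = 0.000249). In WT, Ndufs7 had 8.13, 7.88, 8.15, 7.97 and 7.64 in fasted and 7.71, 7.48, 7.31, 7.64 and 7.26 in fed livers. Fasted replicate 5 met the highest fed livers there, and the difference was 0.47 (SE 0.11, adjusted p = 0.00959). Ndufs7 kept its call in both genotypes under every other processing tried and without any 1 of the 10 compared livers.

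Ndufv2, an iron-sulphur subunit of the N module, had 7.77, 7.87, 7.67, 8.23 and 7.84 in fasted and 7.19, 7.52, 7.19, 7.68 and 7.31 in fed Mcl1(L-/-) livers. Fed replicate 4 was as high as the lowest fasted liver, and the difference was 0.49 (SE 0.12, adjusted p = 0.00458). In WT its signals of 7.55, 7.70, 7.55, 7.52 and 7.85 in fasted and 7.73, 7.64, 7.42, 7.63 and 7.61 in fed livers overlapped, with a difference of 0.03 (SE 0.12, adjusted p = 0.948). Ndufs1, the largest subunit of the matrix arm and the carrier of several clusters, had 7.63, 7.34, 7.46, 7.69 and 7.37 in fasted and 7.0, 7.09, 7.04, 7.30 and 6.95 in fed Mcl1(L-/-) livers. These groups did not overlap, and the difference was 0.42 (SE 0.12, adjusted p = 0.0196), a call lost without fed replicate 5 or fasted replicate 1 or 4 (adjusted p up to 0.0555). In WT the difference of Ndufs1 was 0.10 (SE 0.12, adjusted p = 0.763), with 7.38, 7.51, 7.52, 6.82 and 7.35 in fasted and 7.23, 7.17, 7.39, 7.05 and 7.23 in fed livers. Fasted WT replicate 4 lay below every other WT liver for this gene.

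Ndufv1 encodes the flavin-bearing subunit at which NADH is oxidised. Its signals were 9.19, 8.97, 8.98, 9.25 and 9.18 in fasted and 8.72, 8.80, 8.83, 8.99 and 8.76 in fed Mcl1(L-/-) livers, and 8.90, 9.14, 9.17, 8.93 and 8.88 in fasted and 8.72, 8.58, 8.71, 8.66 and 8.80 in fed WT livers. Fasted and fed livers were apart in WT and met at fed replicate 4 in Mcl1(L-/-). The rise was of like size in both genotypes, at 0.29 in Mcl1(L-/-) and 0.31 in WT (SE 0.09 each, adjusted p = 0.0380 and 0.0488; interaction -0.02, SE 0.13). Both calls were near the threshold. That in Mcl1(L-/-) was lost without fed Mcl1(L-/-) replicate 1, 2, 3 or 5 or fasted replicate 1, 4 or 5 (adjusted p up to 0.0953), and that in WT without any 1 fed replicate or fasted replicate 2, 3 or 4 (adjusted p up to 0.140). Fitting only the compared groups also ended both (adjusted p = 0.0869 in Mcl1(L-/-) and 0.0879 in WT), as did quantile normalisation in Mcl1(L-/-) (0.0546) and median centring in WT (0.0767).

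Ndufs3, a core subunit of the Q module, had 9.56, 9.41, 9.33, 9.67 and 9.41 in fasted and 9.16, 9.21, 9.19, 9.18 and 9.18 in fed Mcl1(L-/-) livers. The fed livers were tightly grouped below all the fasted ones, with a difference of 0.29 (SE 0.09, adjusted p = 0.0330). The call was lost without any 1 fed Mcl1(L-/-) replicate or fasted replicate 1 or 4 (adjusted p up to 0.0969), after quantile normalisation (0.0539) and with only the compared groups fitted (0.0743). In WT, Ndufs3 averaged 9.34 ± 0.14 in fasted and 9.17 ± 0.08 in fed livers (SD, n = 5), a difference of 0.17 (adjusted p = 0.358). Ndufs8, the core subunit with the remaining clusters of the Q module, pointed the other way. It had 8.43, 8.0, 8.25, 8.70 and 8.31 in fasted and 8.55, 8.76, 8.69, 8.79 and 8.45 in fed Mcl1(L-/-) livers, a difference of -0.31 (SE 0.12, adjusted p = 0.0795). In WT it had 8.53, 8.49, 8.53, 8.22 and 8.37 in fasted and 8.83, 8.67, 8.59, 8.57 and 8.54 in fed livers, a difference of -0.21 (SE 0.12, adjusted p = 0.365). Neither difference passed the test, and in Mcl1(L-/-) the fall passed without fasted replicate 4, whose signal was the highest of the fasted livers (-0.40, adjusted p = 0.0154). It also passed after quantile normalisation (adjusted p = 0.0333), with trend and robust moderation (0.0465) and with dim probe sets left out (0.0420).

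**Figure D2:**
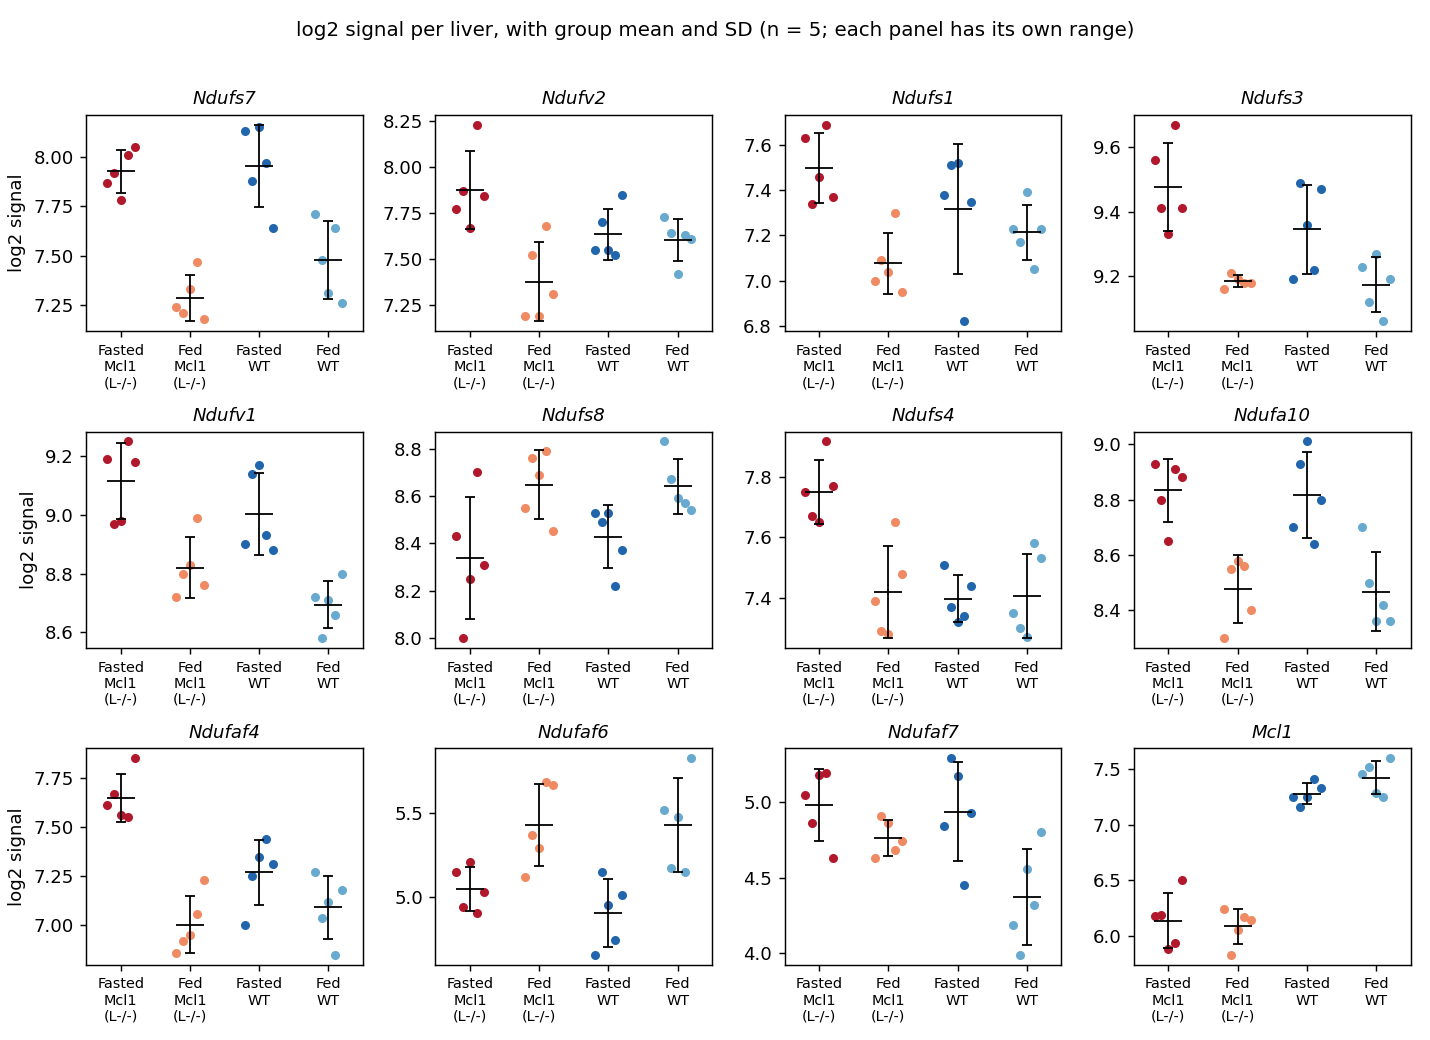
Log2 signal (y axis, own range per panel) of 11 complex I genes and Mcl1 in each liver, with 5 points per group and the group mean and SD in black; groups run from fasted Mcl1(L-/-) on the left to fed WT on the right. Ndufaf4 and Ndufs4 lie above all 10 WT livers in all 5 fasted Mcl1(L-/-) livers, Ndufs7 is high in both fasted groups, and Mcl1 is low in both Mcl1(L-/-) groups.

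The accessory subunits surround the core and stabilise it. With its core members included, the N module had 6 of 10 genes higher in fasted Mcl1(L-/-) livers, where 8.20% of all probe sets rose. In fasted WT livers 1 of the 10 was higher, where 3.10% of all probe sets rose, and limma called the interaction for 0 of the 10. Besides Ndufv2, Ndufs1 and Ndufv1, the genes higher in fasted Mcl1(L-/-) livers were Ndufa7 (log2 difference 0.38), Ndufa12 (0.37) and Ndufs4 (0.33). Ndufs4, whose loss causes a Leigh-like encephalopathy in mice, had 7.75, 7.67, 7.65, 7.92 and 7.77 in fasted and 7.39, 7.29, 7.28, 7.65 and 7.48 in fed Mcl1(L-/-) livers. The lowest fasted and the highest fed liver were nearly equal (SE 0.10, adjusted p = 0.0199). In WT it had 7.51, 7.37, 7.32, 7.34 and 7.44 in fasted and 7.35, 7.30, 7.27, 7.58 and 7.53 in fed livers, a difference of -0.01 (SE 0.10). The call of Ndufs4 was lost without fed Mcl1(L-/-) replicate 2 or 3 or fasted replicate 4 (adjusted p up to 0.0605), and that of Ndufa7 without fasted replicate 5 (adjusted p = 0.0546). The other N module genes, Ndufa6, Ndufv3, Ndufa2 and Ndufs6, measured 0.23, 0.14, 0.11 and 0.03.

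In the Q module Ndufa5 rose by 0.43 (SE 0.10, adjusted p = 0.00323) in fasted Mcl1(L-/-) livers, so that 3 of 5 measured genes rose, and Ndufa9 measured 0.12. In the proximal membrane arm 3 of 9 rose, namely Ndufa8 (0.46), Ndufc2 (0.39) and Ndufa10 (0.36). In the distal arm 4 of 12 rose, namely Ndufab1 (0.38), Ndufb4 (0.34), Ndufb9 (0.34) and Ndufb4b (0.30). Beside these counts, 8.20% of all probe sets rose with fasting in Mcl1(L-/-) livers, and limma called the interaction for 0 genes of these modules. Ndufab1 encodes the acyl carrier protein of mitochondria, which serves fatty acid synthesis there as well as complex I. Ndufb4 and Ndufb4b are copies of a gene, and whether the probes separate them was not tested. Calls of accessory genes were lost without fed Mcl1(L-/-) replicate 1 for Ndufa10 (adjusted p = 0.0567), without fed replicate 1, 3 or 5 or fasted replicate 1 or 4 for Ndufab1 (up to 0.0766), without fed replicate 1 or 5 or fasted replicate 2 or 4 for Ndufb4 (up to 0.0787), and without fed replicate 1, 3 or 5 or fasted replicate 1, 2, 4 or 5 for Ndufb4b (up to 0.105). With only the compared groups fitted, those of Ndufs4 (0.0575), Ndufb4 (0.0727) and Ndufb4b (0.101) were lost, and after quantile normalisation that of Ndufb4b (0.0802). Without both fasted Mcl1(L-/-) replicates 3 and 4, those of Ndufa4, Ndufab1, Ndufs1, Ndufs3, Ndufs4 and Ndufv1 were lost. Those of Ndufa5, Ndufa8, Ndufa12, Ndufb9, Ndufc2 and Ndufv2 remained without any 1 liver.

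In fasted WT livers 1 accessory subunit, Ndufa10, rose, and Ndufa7 was near the threshold. Ndufa7 measured 0.33 in WT (SE 0.11, adjusted p = 0.0674), beside 0.38 in Mcl1(L-/-), and passed with array weights (adjusted p = 0.0456), with dim probe sets left out (0.0343) and without fed WT replicate 2 (0.0320). Ndufa10 had 8.93, 8.80, 8.65, 8.91 and 8.88 in fasted and 8.30, 8.55, 8.58, 8.56 and 8.40 in fed Mcl1(L-/-) livers, and 8.70, 8.93, 9.01, 8.64 and 8.80 in fasted and 8.70, 8.5, 8.36, 8.42 and 8.36 in fed WT livers. The groups met only at fed WT replicate 1, and the differences were 0.36 in Mcl1(L-/-) and 0.35 in WT (SE 0.10 each, adjusted p = 0.0168 and 0.0376). The WT call was lost without fed replicate 2, 3, 4 or 5 or fasted replicate 2, 3 or 5 (adjusted p up to 0.119), with median centring (0.0561) and with only the compared groups fitted (0.0770). Ndufa10, Ndufs7 and Ndufv1 were the 3 genes called in both genotypes.

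Among the genes with an Nduf name that are not placed in a module of complex I, Ndufa4 is counted today with complex IV. It rose by 0.24 in fasted Mcl1(L-/-) livers (SE 0.08, adjusted p = 0.0480) and the call was lost without any 1 of the 10 livers, after quantile normalisation (adjusted p = 0.0592), with array weights (0.0615) and with only the compared groups fitted (0.128). Its relative Ndufa4l2, known for its induction in hypoxia, had 3.28, 4.59, 4.28, 3.42 and 3.21 in fasted and 3.26, 3.14, 3.29, 3.35 and 3.60 in fed Mcl1(L-/-) livers. Replicates 2 and 3 alone were high, and the difference of 0.43 (SE 0.23) had an adjusted p of 0.277.

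The 8 assembly factor genes did not share a direction. With fasting 1 rose and 0 fell in Mcl1(L-/-) livers, which is 12.5% rising, where 8.20% of all probe sets rose and 6.25% fell. In WT livers 1 rose and 1 fell, where 3.10% of all probe sets rose and 3.68% fell. Their median difference was 0.04 in Mcl1(L-/-) and -0.07 in WT, with 4 of 8 above 0 in each, where the subunits had 0.26 and 0.05. These medians rest on 8 genes, and leaving out the dim Ndufaf5 with a signal filter turned them to -0.102 and 0.087. The difference between subunits and assembly factors was not tested, since a score over chosen genes has no test here. Assembly factor genes also varied more between livers of a group, with median SD of 0.18 to 0.24 over the 4 groups against 0.11 to 0.14 for subunits. Their array signals were also lower than those of most subunits, except for Ndufaf4, whose SD was 0.12 to 0.17. This describes brightness on the array and not expression, which the scale does not compare between genes. The dim subunit Ndufa4l2 had the widest SD of the subunits in fasted Mcl1(L-/-) (0.63) and fasted WT (0.49) livers. The part of signal level in these class differences was not tested.

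Ndufaf4, which works with Ndufaf3 in building the Q module, was the assembly factor gene that rose in fasted Mcl1(L-/-) livers. It had 7.61, 7.67, 7.56, 7.55 and 7.85 in fasted and 6.86, 6.92, 6.95, 7.06 and 7.23 in fed Mcl1(L-/-) livers, with no overlap and a difference of 0.64 (SE 0.11, adjusted p = 0.000128). In WT it had 7.0, 7.25, 7.35, 7.44 and 7.31 in fasted and 7.27, 7.04, 7.12, 6.85 and 7.18 in fed livers, an overlapping difference of 0.18 (SE 0.11, adjusted p = 0.420). The call in Mcl1(L-/-) remained without any 1 liver. Its partner Ndufaf3 measured -0.10 in Mcl1(L-/-) and 0.50 in WT (SE 0.17, adjusted p = 0.807 and 0.0882), and the WT difference passed with array weights (adjusted p = 0.0277) and without fasted WT replicate 4 (0.0227).

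Ndufaf7, a mitochondrial methyltransferase, had 4.84, 5.29, 5.17, 4.45 and 4.93 in fasted and 4.19, 3.99, 4.56, 4.32 and 4.80 in fed WT livers. The groups overlapped, and the difference was 0.57 (SE 0.16, adjusted p = 0.0269), a call lost without fed replicate 1, 2 or 4 or fasted replicate 2 or 3 (adjusted p up to 0.0921) or with only the compared groups fitted (0.0597). In Mcl1(L-/-) it averaged 4.98 ± 0.24 in fasted and 4.76 ± 0.12 in fed livers (SD, n = 5), a difference of 0.22 (adjusted p = 0.450). Ndufaf6, which is needed early in assembly, had 4.65, 5.15, 4.95, 4.74 and 5.01 in fasted and 5.52, 5.17, 5.48, 5.15 and 5.83 in fed WT livers. The lowest fed and the highest fasted livers met at 5.15, and it fell by 0.53 (SE 0.14, adjusted p = 0.0189), a call lost without fed replicate 5 or fasted replicate 1 or 4 (adjusted p up to 0.0697). In Mcl1(L-/-) its difference was -0.38 (SE 0.14, adjusted p = 0.0700), which passed without fed replicate 1 (adjusted p = 0.0338), with 5.15, 4.94, 5.21, 4.90 and 5.03 in fasted and 5.12, 5.37, 5.29, 5.69 and 5.67 in fed livers.

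The remaining assembly factor genes gave no call. Ndufaf8, the partner of Ndufaf5, measured 0.31 in Mcl1(L-/-) (adjusted p = 0.0680), which passed after quantile normalisation (adjusted p = 0.0489) and with dim probe sets left out (0.0352), and 0.09 in WT. Ndufaf5, which hydroxylates the Ndufs7 protein, measured 0.19 and -0.23, and Ndufaf2, a relative of Ndufa12 that acts late in assembly, -0.15 and -0.33. Ndufaf1, a member of the complex that assembles the membrane arm, measured -0.38 and -0.41 (adjusted p = 0.266 and 0.307), and the WT difference passed when only the compared groups were fitted (adjusted p = 0.0452). With fasted WT replicate 2 left out, Ndufaf2 fell in WT (-0.45, adjusted p = 0.0263).

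Taken liver by liver, the median subunit level separated fasted from fed Mcl1(L-/-) livers and the median assembly factor level did not. Each gene was set relative to its mean over the 20 arrays, and the median over the 38 subunits was taken in each liver. It lay at 0.124, 0.115, 0.039, 0.277 and 0.136 in fasted and at -0.156, -0.085, -0.134, -0.064 and -0.153 in fed Mcl1(L-/-) livers, and at -0.044, 0.047, 0.115, -0.016 and 0.053 in fasted and 0.048, -0.072, -0.102, -0.017 and -0.043 in fed WT livers. The fasted and fed groups stood apart in Mcl1(L-/-) and overlapped in WT. Fasted Mcl1(L-/-) replicate 4 was the highest liver and replicate 3 the lowest of its group. The same median over the 8 assembly factors ran from -0.149 to 0.356 in fasted Mcl1(L-/-), -0.145 to 0.083 in fed Mcl1(L-/-), -0.278 to 0.136 in fasted WT and -0.125 to 0.049 in fed WT livers, so all groups overlapped. These medians describe the livers and were not tested.

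**Figure D3:**
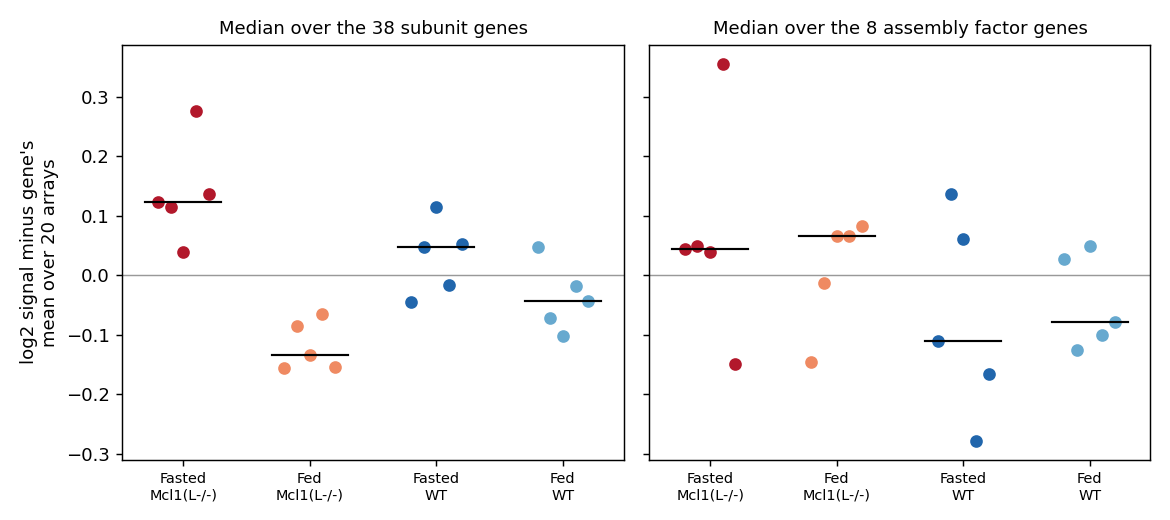
Median over 38 subunit genes (left) and 8 assembly factor genes (right) of the log2 signal minus each gene's mean over 20 arrays (y axis), with 1 point per liver and the group median as a line. For subunits the fasted Mcl1(L-/-) livers lie at 0.039 to 0.277 and the fed ones at -0.156 to -0.064, while the assembly factors overlap between all groups.

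Genotypes were compared next within each feeding state. In fed livers 0 of the 38 subunits and 0 of the 8 assembly factors were called by limma, where 0.0360% of all probe sets were, 0.0225% higher and 0.0135% lower. At an unadjusted p under 0.05 there were 6 subunits and 1 assembly factor. The median subunit difference of Mcl1(L-/-) minus WT in fed livers was -0.07, with 9 of 38 above 0. Of the subunits, 4 were lower and 1 was higher without overlap in fed Mcl1(L-/-) livers, where 0.766% and 0.806% of all probe sets were. These were named after their values were seen. Ndufa3, an accessory subunit of the proximal arm, had 9.67, 9.42, 9.62, 9.44 and 9.47 in fed Mcl1(L-/-) and 9.93, 9.91, 9.84, 9.72 and 9.73 in fed WT livers, a difference of -0.30 (SE 0.10, adjusted p = 0.510). Ndufc2, Ndufa1 and Ndufb9 measured -0.21, -0.20 and -0.18, and Ndufa11 measured 0.21.

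In fasted livers 1 subunit and 1 assembly factor were higher in Mcl1(L-/-) than in WT and 0 were lower, where 4.99% of all probe sets were called, 3.32% higher and 1.67% lower. The median subunit difference was 0.09, with 32 of 38 above 0. Ndufs4 was 0.36 higher in fasted Mcl1(L-/-) than in fasted WT livers (SE 0.10, adjusted p = 0.0345), and Ndufaf4 was 0.38 higher (SE 0.11, adjusted p = 0.0411). From the signals given above, every fasted Mcl1(L-/-) liver exceeded every fasted WT liver for both genes, where 2.54% of all probe sets were higher and 1.36% lower without overlap. Both calls lay close to the threshold. That of Ndufs4 was lost without fasted WT replicate 2, 3, 4 or 5 or fasted Mcl1(L-/-) replicate 1, 2, 4 or 5 (adjusted p up to 0.0800), and that of Ndufaf4 without fasted WT replicate 1, 2, 3 or 5 or fasted Mcl1(L-/-) replicate 1, 2 or 5 (adjusted p up to 0.117). Quantile normalisation and fitting only the compared groups ended both (adjusted p = 0.0544 and 0.0905 for Ndufs4, 0.0944 and 0.106 for Ndufaf4), and array weights ended that of Ndufs4 (0.0589). Markers of other cell types also differed between fasted Mcl1(L-/-) and fasted WT livers. Of 6 Kupffer cell markers 2 were higher, Vsig4 (1.22) and Clec4f (0.56), all 6 were above 0 and the median was 0.55. Of 5 stellate cell markers Dcn was higher (0.76), while 3 of 5 were above 0, the median was 0.13 and the lowest value -0.48. Of 5 endothelial markers 0 were called (2 at an unadjusted p under 0.05), all 5 were above 0 and the median was 0.33. The part of these cell types in the calls of Ndufs4 and Ndufaf4 was not tested. Ndufs5, an accessory subunit of the proximal arm, had 7.12, 7.03, 7.06, 7.10 and 7.05 in fasted Mcl1(L-/-) and 6.72, 7.06, 6.86, 6.38 and 6.79 in fasted WT livers, a difference of 0.31 that did not pass the test (SE 0.11, adjusted p = 0.0982) and passed it without fasted WT replicate 2 (adjusted p = 0.0434). It was named after its values were seen.

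**Figure D4:**
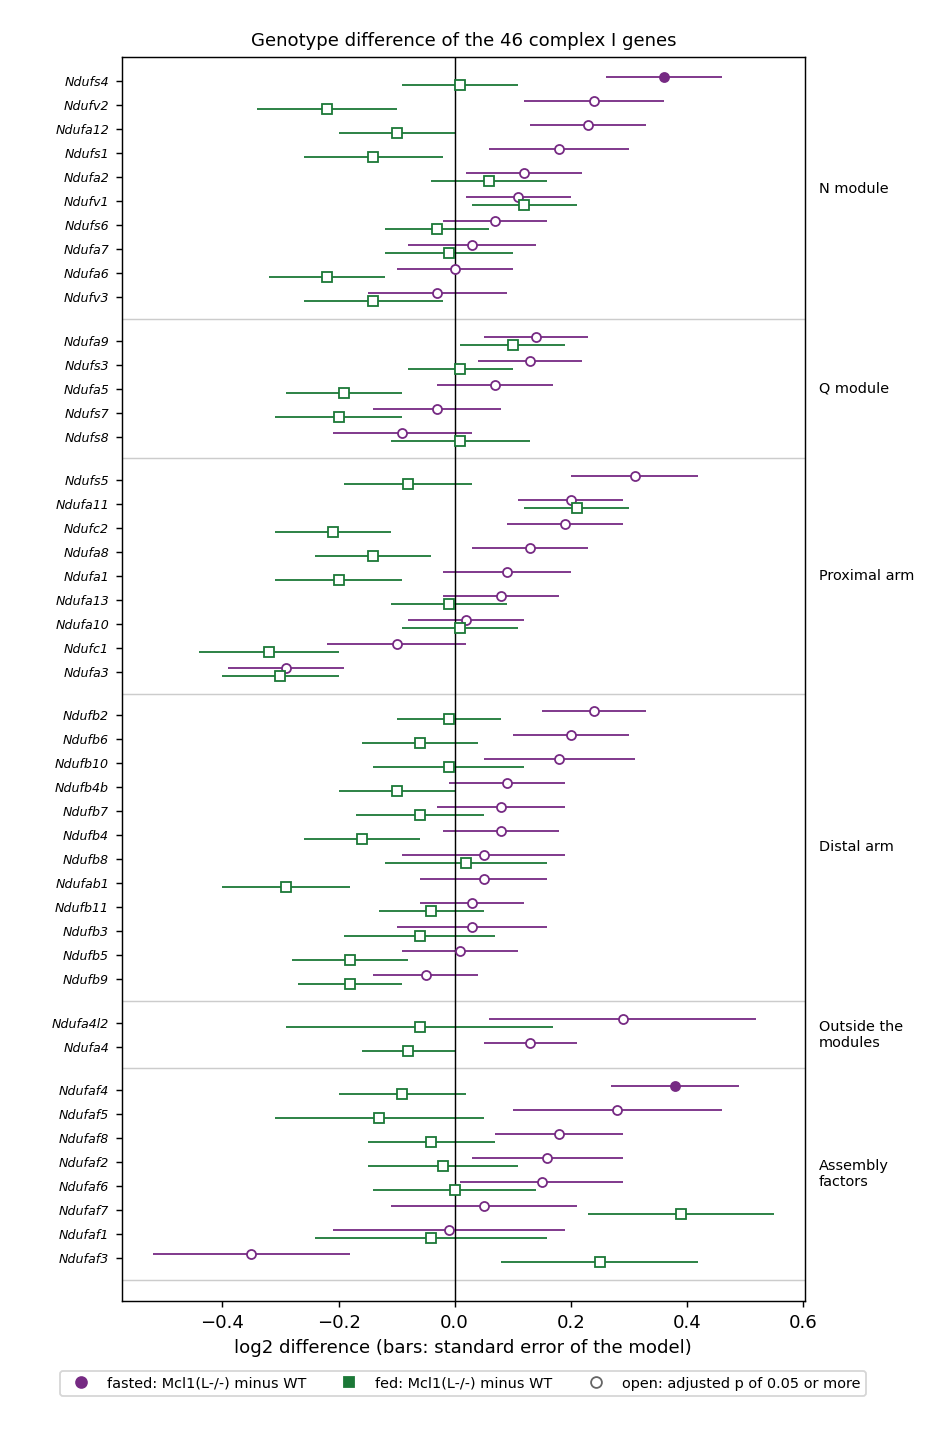
Difference between Mcl1(L-/-) and WT livers in log2 signal (x axis) for each of the 46 genes (rows, grouped by module), with circles for fasted and squares for fed livers; bars are the standard error of the model and filled symbols have an adjusted p under 0.05. Filled symbols mark Ndufs4 and Ndufaf4 in fasted livers, and none marks a fed comparison.

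The interaction, the fasting difference in Mcl1(L-/-) minus that in WT, tests whether the response to fasting differed between genotypes. Limma called 0 of the 46 genes, where 0.135% of all probe sets were called, 0.0811% upward and 0.0540% downward. At an unadjusted p under 0.05 there were 7 subunits and 2 assembly factors. The estimates were above 0 for 35 of 38 subunits, with a median of 0.19 where that of all probe sets was -0.01. The typical SE of a subunit's estimate was 0.14. Ndufv2 had the highest estimate, 0.47 (SE 0.17, adjusted p = 0.261), followed by Ndufaf4 at 0.46 (SE 0.15, adjusted p = 0.216), while Ndufaf3 had the lowest, -0.60 (SE 0.24, adjusted p = 0.323). The larger count of subunits called in Mcl1(L-/-) than in WT was therefore not accompanied by a gene whose response was shown to differ.

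Promoter sequences are shown for 4 of the genes that rose in fasted Mcl1(L-/-) livers, Ndufs7, Ndufaf4, Ndufs4 and Ndufs3, since the first pair moved most and each holds a motif of a known regulator of respiratory chain genes, motifs that were chosen after the values were seen. The sequences are from RefSeq on GRCm38.p6, run 5′ to 3′ on the gene's strand, and cover 250 bases before to 50 after the start. Capitals mark the motifs found, namely that of YY1 in Ndufs7 and Ndufs4, that of NRF1 in Ndufaf4 and the ETS motif bound by GABPA, found at 2 places, in Ndufs3. The windows are chr10:80249199-80249498 (plus strand) for Ndufs7, chr4:24897833-24898132 (plus strand) for Ndufaf4, chr13:114388045-114388344 (minus strand) for Ndufs4 and chr2:90904672-90904971 (minus strand) for Ndufs3.
Ndufs7: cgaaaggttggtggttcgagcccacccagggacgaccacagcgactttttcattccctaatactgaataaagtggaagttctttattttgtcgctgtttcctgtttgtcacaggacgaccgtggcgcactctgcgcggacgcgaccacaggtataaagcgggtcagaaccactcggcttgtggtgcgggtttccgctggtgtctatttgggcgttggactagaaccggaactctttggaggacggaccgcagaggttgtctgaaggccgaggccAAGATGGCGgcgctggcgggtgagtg
Ndufaf4: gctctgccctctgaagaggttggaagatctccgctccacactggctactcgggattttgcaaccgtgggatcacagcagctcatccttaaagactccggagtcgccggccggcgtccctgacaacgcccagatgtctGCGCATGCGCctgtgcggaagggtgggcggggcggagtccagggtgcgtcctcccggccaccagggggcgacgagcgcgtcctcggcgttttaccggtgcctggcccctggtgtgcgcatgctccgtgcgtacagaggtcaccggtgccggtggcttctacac
Ndufs4: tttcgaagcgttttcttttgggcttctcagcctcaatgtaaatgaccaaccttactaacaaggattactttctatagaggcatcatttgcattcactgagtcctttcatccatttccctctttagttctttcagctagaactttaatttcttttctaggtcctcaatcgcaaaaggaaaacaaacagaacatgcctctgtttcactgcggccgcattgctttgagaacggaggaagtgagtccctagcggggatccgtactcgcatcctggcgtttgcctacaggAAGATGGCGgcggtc
Ndufs3: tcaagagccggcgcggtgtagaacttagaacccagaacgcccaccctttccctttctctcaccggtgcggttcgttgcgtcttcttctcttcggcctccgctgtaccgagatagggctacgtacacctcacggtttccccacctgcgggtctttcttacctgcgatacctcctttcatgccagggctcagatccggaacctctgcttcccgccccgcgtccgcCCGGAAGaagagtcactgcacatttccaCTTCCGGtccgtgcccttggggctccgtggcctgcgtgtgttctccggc

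Promoters of 41 of the 46 genes were in the table. Exact letters were searched on both strands and no matches overlapped in the 4 promoters shown. The NRF1 motif, GCGCA followed directly by its own reverse complement TGCGC, reads the same on both strands and was in promoters of 3 of 41 complex I genes (7.32%, Ndufa11, Ndufaf4 and Ndufaf5) and of 1.07% of all genes in the table. The YY1 motif AAGATGGCG was in 6 of 41 (14.6%, Ndufa9, Ndufaf8, Ndufc1, Ndufs4, Ndufs6 and Ndufs7) and 1.64% of all genes. The ETS motif CCGGAAG was in 6 of 41 (14.6%, Ndufaf1, Ndufaf8, Ndufb6, Ndufb7, Ndufs3 and Ndufs8) and 9.93% of all genes. Of the complex I genes with a match, only the 4 shown were called for fasting in Mcl1(L-/-) livers. The others were not called there, and Ndufs8 measured -0.31. The motif of oestrogen-related receptors, TCAAGGTCA, was in 0 of 41 and 0.466% of all genes. A match describes letters in this window, is no proof of binding and was not tested against the response to fasting.

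Genes of regulators of the respiratory chain were measured for 14 of 15 listed. In fasted Mcl1(L-/-) livers 5 rose (35.7%) and 1 fell, where 8.20% of all probe sets rose and 6.25% fell. In fasted WT livers 2 rose (14.3%) and 0 fell, where 3.10% of all probe sets rose and 3.68% fell. Limma called the interaction for 0 of the 14 (4 at an unadjusted p under 0.05), so no regulator was shown to respond differently between genotypes. Ppargc1a, the coactivator that drives mitochondrial genes, had 7.89, 7.10, 7.89, 8.05 and 7.50 in fasted and 5.73, 7.01, 5.95, 5.67 and 5.86 in fed Mcl1(L-/-) livers, and 7.45, 7.68, 8.0, 8.20 and 7.63 in fasted and 6.18, 6.82, 5.63, 5.88 and 5.44 in fed WT livers. Fasted livers lay above fed ones without overlap in both genotypes, and it rose by 1.64 in Mcl1(L-/-) and 1.80 in WT (SE 0.25 each, adjusted p = 5.01e-05 and 4e-05). Gabpb1, a subunit of the ETS factor GABP, rose by 0.93 in Mcl1(L-/-) (SE 0.23, adjusted p = 0.00567) and measured 0.11 in WT. Tfb2m, a mitochondrial transcription factor, rose by 0.76 (SE 0.12, adjusted p = 0.000114) and measured 0.23, while Ppara, the fatty acid receptor of the fasting liver, fell by 0.72 (adjusted p = 0.0283) and measured -0.41. The other call in WT was Tfb1m, a relative of Tfb2m, which rose by 0.83 (adjusted p = 0.0215). Nrf1, which encodes the nuclear respiratory factor whose motif is given above, had 5.40, 5.76, 4.85, 4.89 and 5.24 in fasted and 4.02, 4.44, 4.95, 4.70 and 4.78 in fed Mcl1(L-/-) livers. Fasted replicates 3 and 4 lay within the fed range, and the rise was 0.65 (SE 0.19, adjusted p = 0.0184). Nrf1 was also 0.71 higher in fasted Mcl1(L-/-) than in fasted WT livers (adjusted p = 0.0287), the sole regulator called for genotype in the fast.

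Of 14 further assembly factors without an Nduf name, 13 were measured. With fasting 1 rose (7.69%) and 1 fell in Mcl1(L-/-) livers, near the 8.20% and 6.25% of all probe sets that rose and fell. In WT 0 were called, where 2 had an unadjusted p under 0.05 and 6.79% of all probe sets were called. Limma called the interaction for 0 of the 13 (2 at an unadjusted p under 0.05). Timmdc1, an assembly factor of the membrane arm, had 6.69, 6.71, 6.87, 7.17 and 6.50 in fasted and 7.64, 7.27, 7.43, 7.46 and 7.34 in fed Mcl1(L-/-) livers, with no overlap, and fell by 0.64 (SE 0.11, adjusted p = 0.000223). In WT it averaged 7.12 ± 0.06 in fasted and 7.34 ± 0.13 in fed livers (SD, n = 5), a difference of -0.22 (adjusted p = 0.321). Tmem70, which assists both complex I and ATP synthase, rose by 0.50 in Mcl1(L-/-) (SE 0.11, adjusted p = 0.00359) and measured -0.08 in WT. The median of these factors was 0.02 in Mcl1(L-/-) and -0.03 in WT, near that of the Ndufaf genes.

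The other complexes of the respiratory chain gave like counts. Of 53 genes of complexes II to V and cytochrome c, 26 rose (49.1%) and 0 fell with fasting in Mcl1(L-/-), where 8.20% of all probe sets rose. In WT 3 rose (5.66%) and 0 fell, where 3.10% of all probe sets rose. Limma called the interaction for 0 of the 53 (6 at an unadjusted p under 0.05), so no gene among them was shown to respond differently between genotypes. Their medians were 0.29 and 0.12, beside 0.26 and 0.05 for complex I subunits. The sets are unlike, since the 53 include assembly factor genes of complex II (Sdhaf1, Sdhaf2, Sdhaf3 and Sdhaf4). None of these was called for fasting in either genotype. Cycs, the cytochrome c gene, rose by 0.67 in Mcl1(L-/-), and Uqcrc2, a core protein of complex III, by 0.55 (SE 0.12 and 0.11, adjusted p = 0.000208 and 0.000701). In WT the calls were Atp5d (0.45) and Cox5b (0.37), subunits of ATP synthase and cytochrome c oxidase, and Uqcrc1 (0.43), the partner of Uqcrc2. For genotype in the fast Cycs was higher by 0.53 (adjusted p = 0.00994) and Cox6a2, a muscle form of a cytochrome c oxidase subunit, was lower (-0.61, adjusted p = 0.0310). Complex I was not tested against the other complexes.

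Since whole livers were measured, fewer cells of a type and less RNA per cell cannot be told apart. The mean log2 signal of 9 of 10 hepatocyte markers was 11.57 to 11.65 in fasted Mcl1(L-/-), 11.45 to 11.51 in fed Mcl1(L-/-), 11.60 to 11.66 in fasted WT and 11.43 to 11.52 in fed WT livers. These means were higher in the fast in both genotypes, while the median difference of the markers was 0.01 in Mcl1(L-/-), with 7 of 9 above 0, and 0.02 in WT, with 5 of 9 above 0. In Mcl1(L-/-) 3 rose with fasting, Tat (0.65), Cps1 (0.54) and Hnf4a (0.48), and Ttr, the gene of the plasma protein transthyretin, fell (-0.32). In WT Tat (0.69) and Cps1 (0.47) rose and 0 fell. Beside these and the marker counts below, 8.20% of all probe sets rose and 6.25% fell with fasting in Mcl1(L-/-). The shares in WT were 3.10% and 3.68%. Tat and Cps1 encode enzymes of amino acid catabolism and the urea cycle. The 6 markers of Kupffer cells, the macrophages of the liver, averaged 4.83 to 5.65 in fasted Mcl1(L-/-), 5.25 to 5.62 in fed Mcl1(L-/-), 4.40 to 4.70 in fasted WT and 5.02 to 5.53 in fed WT livers. Of them 1 fell with fasting in Mcl1(L-/-) and 3 fell in WT. Limma called the interaction for Vsig4 alone among the 6, where 0.135% of all probe sets were called. The 5 endothelial markers averaged 5.75 to 6.31 in fasted Mcl1(L-/-), 5.11 to 5.73 in fed Mcl1(L-/-), 5.37 to 5.96 in fasted WT and 5.57 to 5.89 in fed WT livers, so the mean did not overlap between fasted and fed Mcl1(L-/-) livers. Of these markers 1, Lyve1, rose in Mcl1(L-/-), by 2.24, where the median was 0.22 and the lowest value -0.33. In WT Lyve1 rose by 1.79 and Clec4g fell, with 4 of 5 below 0 and a median of -0.38, while stellate cell markers gave 1 of 5 higher and 1 lower in Mcl1(L-/-) and 0 in WT (1 at an unadjusted p under 0.05), with means of 5.60 to 6.01 in fasted Mcl1(L-/-), 5.85 to 6.11 in fed Mcl1(L-/-), 5.58 to 5.75 in fasted WT and 5.56 to 6.04 in fed WT livers. Markers of cholangiocytes (4) and lymphocytes (4 of 5) had 0 calls for fasting in either genotype, with at most 2 at an unadjusted p under 0.05 in each list. Cholangiocyte means were 2.94 to 3.30 in fasted and 2.92 to 3.30 in fed Mcl1(L-/-) livers, and lymphocyte means 2.96 to 3.19 in fasted and 3.06 to 3.46 in fed Mcl1(L-/-) livers. The table holds no detection calls, so no marker can be called absent. The part of these cells in the complex I values was not tested.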

How the data were processed

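The deposited table holds the authors' normalised log2 signals, produced by RMA (background correction, quantile normalisation and summary of probes) and Partek 7.0, per the submitters' processing notes. RNA was isolated with Trizol and cDNA made with the GeneChip WT PLUS kit, per the labels' protocols. The log base is not stated and log2 is assumed from the values, 1.34 to 12.56. RMA equalises the arrays' distributions, so a shift shared by most transcripts is lost, and differences of dim probe sets come out too small. Symbols came from the platform annotation (19572 of 22206 probe sets).

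Limma 3.58.1 in R 4.3.3 fitted 1 mean per group to all 20 arrays, with eBayes moderation (prior df 6.95) and Benjamini-Hochberg adjustment over all probe sets. SE are the model's and assume equal spread in the groups. The 5 contrasts were fasted minus fed in each genotype, Mcl1(L-/-) minus WT in each feeding state, and the interaction. The steps were tested on simulated data. The number of arrays limits the precision.

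The members and gene lists were chosen with earlier results of these data known. Full values are given for up to 3 called members with the largest rise and fall per contrast, the core subunits and called Ndufaf genes. Modules follow textbook assignments. Alternatives were other scalings, moderation, array weights, a signal filter, fitting the compared groups alone, a minimum fold, the replicate number as a block and the removal of each array. Figures were drawn with matplotlib 3.10.9.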

Additional observations from a re-analysis of the deposited data

Results flagged for a closer look

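In 7 of 188 groups of 5 livers (46 complex I genes and Mcl1 in 4 groups), 1 liver lay far from the other 4 by Dixon's test, where chance gives about 1 in 20. In fasted Mcl1(L-/-) livers, Ndufa11 had 6.70 in replicate 3 against 6.90 to 6.97 in the others, and Ndufa4 had 10.82 in replicate 4 against 10.59 to 10.63. In fed Mcl1(L-/-) livers, Ndufa9 had 8.02 in replicate 2 against 7.76 to 7.84. In fasted WT livers, Ndufb4 had 9.13 and Ndufb9 had 9.83 in replicate 1, against 9.36 to 9.43 and 10.06 to 10.15 in the others. In the same group Ndufs1 had 6.82 in replicate 4 against 7.35 to 7.52, and Ndufa7 had 6.28 in replicate 3 against 5.88 to 5.95.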

How the results depend on the processing

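Of 25 calls of single genes, 9 remained under every other processing tried and without any 1 liver, and 0 reversed. The 17 subunits called for fasting in Mcl1(L-/-) became 11 with only the compared groups fitted and 10 to 17 without 1 liver. The 1 assembly factor called there became 2 after quantile normalisation, 3 with dim probe sets left out (2 higher and 1 lower) and 1 to 2 without 1 liver. The 3 subunits called for fasting in WT became 1 with median centring, with the replicate block and with only the compared groups, and 1 to 3 without 1 liver, and the 2 assembly factors became 1 to 2 without 1 liver. Leaving out dim probe sets, which removes Ndufaf5, turned the assembly factor median from 0.042 to -0.102 in Mcl1(L-/-) and from -0.07 to 0.087 in WT. For genotype in the fast, the 1 subunit became 0 after quantile normalisation, with array weights, with only the compared groups and without both fasted Mcl1(L-/-) replicates 3 and 4 (chosen after seeing the data), 2 (1 higher and 1 lower) with trend and robust moderation, and 0 to 1 without 1 liver. The 1 assembly factor became 0 after quantile normalisation, with the replicate block and with only the compared groups, and 0 to 1 without 1 liver. The replicate block ended the fasting calls of Ndufs3, Ndufv1 and Ndufa4 in Mcl1(L-/-) and of Ndufa10 and Ndufv1 in WT, and gave 14 subunits for fasting in Mcl1(L-/-) and 1109 probe sets for genotype in the fast became 924. Same-numbered arrays deviated together at r = -0.144 to 0.166. For genotype in fed livers 3 of 5 correlated best with their own number, and in each other comparison 0 did. With 5 pairs a comparison this cannot settle whether the numbers pair the samples. Leaving out dim probe sets means that fewer genes are tested, and some of the fits use fewer samples. The cause of the changed counts was not tested for any setting.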

Other observations

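Fasted Mcl1(L-/-) replicate 2 gave the lowest Ndufaf1 and the highest Ndufaf5 and Ndufa4l2 signals of its group, which was noticed in the data and not tested. None of these values was flagged by Dixon's test. The same liver was at an edge of its group for other complex I genes too, such as Ndufs1, Ndufs8 and Ndufb2. Ndufaf1 had 4.40 there, against 5.43 to 5.97 in the other fasted Mcl1(L-/-) livers, and its SD in this group was 0.61, against 0.29 in fed Mcl1(L-/-), 0.09 in fasted WT and 0.22 in fed WT livers. Ndufaf5 had 3.67 there against 2.45 to 3.16, and Ndufa4l2 had 4.59 against 3.21 to 4.28.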
